A study of Mus musculus with 2 samples.

Results

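Classical cadherins, the atypical Fat, Dachsous and Celsr cadherins and the protocadherins outside the clustered Pcdha, Pcdhb and Pcdhg loci were followed in the VZ–SVZ, the ventricular and subventricular zones, of the mouse cortex at E13.5. Members were chosen by symbol alone, as every gene named Cdh, Pcdh, Fat, Dchs or Celsr followed by a number, with Pcdh11x kept and with Cdh5, the cadherin of blood vessels, left out as a marker. The symbols gave 43 of the 21896 genes measured. Of these, 24 had at least 1 FPKM (fragments per length of transcript and depth of library) in at least 1 library and 19 did not.

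Poly(A) RNA was sequenced from 1 Rcor2fl/fl library, the control with both Rcor2 alleles floxed, and from 1 Rcor2cko library, which carries the same floxed alleles together with Nestin-Cre. Both came from C57/BL6 embryos of an intercross of Rcor2fl/+NesCre mice. The Nestin promoter drives Cre in neural progenitors, and the deletion passes to their progeny, so that vessels, blood-derived cells and mesenchyme in the dissection are largely outside its reach. How many embryos went into each library is not given in the sources used here. With 1 library per genotype there is no replicate check, no P value can be given, and every difference is one between these 2 libraries. E15.5 was not analysed here.

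Cadherins are calcium-dependent adhesion proteins with repeated extracellular domains. Classical cadherins bind the same or a related cadherin on a neighbouring cell and are tied through catenins to actin, and at the ventricular surface they form the adherens junctions that hold the end-feet of radial glia together. Delta protocadherins are weaker adhesion molecules with regional expression in the brain. Fat and Dachsous bind each other between cells, and the Celsr proteins belong to the core of planar cell polarity.

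The deposited values hold no counts, but where a gene has 1 transcript, of 1000 nt or longer, its FPKM falls on steps of whole fragments, which give scaling totals of 18839900 for Rcor2fl/fl and 25482687 for Rcor2cko. Differences between Rcor2cko and Rcor2fl/fl are on the log2(FPKM + 0.1) scale, on which those of low genes come out too small, and a gene was called higher or lower past 1.5-fold. Genes with recovered fragments have a 95% interval of the log2 fragment ratio, exact after Clopper and Pearson, for counting error only. Rcor2 itself was at 90.6 FPKM in the Rcor2fl/fl and 55.7 FPKM in the Rcor2cko library over all its exons. The paper reports no RNA over the floxed exons in Rcor2cko cortex at E13.5, and the values used here do not resolve exons. Summed FPKM of the radial glia, intermediate progenitor and cortical neuron markers was high in both libraries. The sums were 873, 234 and 1395 in Rcor2fl/fl and 1021, 224 and 1328 in Rcor2cko, with no marker of these lists past 1.5-fold. Of the radial glia sums, Fabp7 made 372 and 539, and 5 of the 8 radial glia markers had a log2 change below 0. Other lists differed more. The 8 ventral telencephalon markers summed to 17.2 and 56.6 FPKM, with 8 of 8 higher past 1.5-fold and Gsx2 and Isl1 at 0 in Rcor2fl/fl. The 7 choroid plexus markers summed to 1.04 and 62.9 FPKM, of which Ttr made 0 and 57.8, with Ttr and Kl at 0 in Rcor2fl/fl. The 5 Cajal-Retzius markers summed to 47.2 and 20.1 FPKM, and 4 of the 4 that passed the filter were lower. The 5 microglia markers summed to 7.32 and 10.3 FPKM, and of the 4 that passed, Csf1r and Fcgr3 were higher past 1.5-fold. The 8 markers of meninges and mesenchyme summed to 2.11 and 2.46 FPKM, none of them at 1 FPKM. Xist, expressed from the inactive X chromosome, was at 177 and 0.109 FPKM and the Y-linked Ddx3y at 0.0239 and 8.10 FPKM, so that the sex of the embryos cannot be told apart from the genotype in any comparison below. In bulk tissue, fewer cells of a type and less RNA per cell cannot be told apart, and the part these cell types had in the values below was not tested.

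Among the 24 members that passed the filter, 3 were higher past 1.5-fold in Rcor2cko and 1 was lower. Cdh4 and Pcdh10 were about doubled, Pcdh1 was higher at a lower level, and Cdh20 was lower. Across all 11777 genes that passed, 3.79% were called higher and 1.76% lower, 5.54% together. The other 20 members stayed within 1.5-fold. Signs were split by family, with 6 of 8 delta protocadherins above 0 and 7 of 7 Fat, Dchs and Celsr genes below 0, where 57.6% of all genes were below 0. The median log2 change was -0.09 over the 24 members and -0.03 over all genes. For 18 of the 24 members fragments could be recovered. The exact interval lay above 0 in 5 of them, below 0 in 8 and included 0 in 5, against 14.0% above and 23.2% below 0 of the 8460 genes with fragments. These intervals narrow with depth, so that a well covered gene can pass them with a small change.

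**Figure D1:**
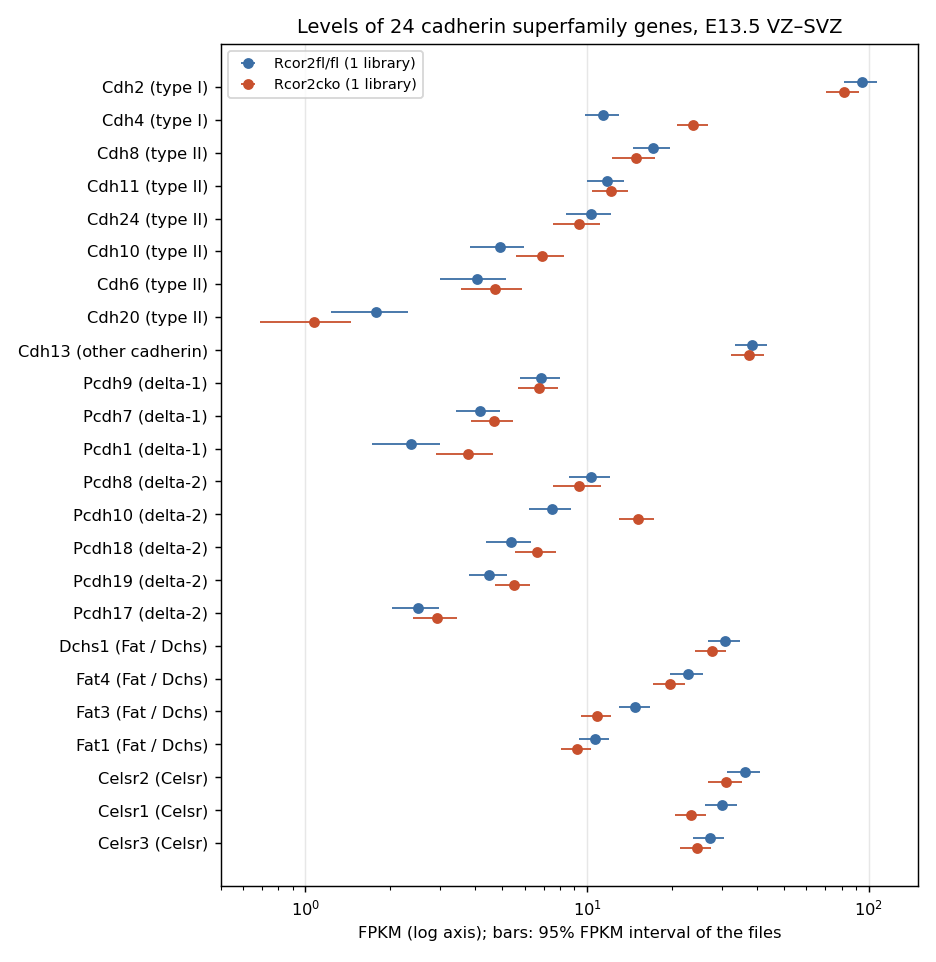
FPKM (log axis) of the 24 members with at least 1 FPKM, by family, in the Rcor2fl/fl library (blue) and the Rcor2cko library (red), with bars for the deposited 95% FPKM interval. Bars of the 2 libraries are apart for Cdh4 and Pcdh10, which were higher in Rcor2cko, and for Fat3, which was lower.

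Cdh2 (N-cadherin), the main cadherin of the ventricular adherens junction, had the highest level of all members in both libraries, at 94.3 FPKM in Rcor2fl/fl and 81.5 FPKM in Rcor2cko. Cdh13, Celsr2 and Dchs1 followed in this order in both. Between Cdh2 and Cdh13 the FPKM intervals did not overlap in either library. Of the 23 pairs of neighbours in the order of levels, 21 had overlapping FPKM intervals in each library, so that most neighbours cannot be ordered. The other pair apart was Cdh6 over Pcdh17 in Rcor2fl/fl and Pcdh17 over Cdh20 in Rcor2cko. The order was largely shared between the libraries, with a Spearman rho of 0.957 across these 24 genes and 0.975 across all 43, which describes genes of 2 libraries and not replicates. Among the 24 members that passed, those that moved up most were Cdh4, from rank 11 to 6, and Pcdh10, from rank 15 to 9.

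Of the 5 type I cadherins, Cdh2 and Cdh4 passed the filter and stood on opposite sides of 0. Cdh2 lies at chr18:16747386-16967755 of mm9 on the minus strand, with 16 exons in its longest annotated transcript. It was covered by 7906 fragments in Rcor2fl/fl and 9232 in Rcor2cko, a log2 difference of -0.21 (exact interval -0.25 to -0.17.) The difference was small and beyond counting error, and the FPKM intervals overlapped. Cdh4 (R-cadherin), a close relative of Cdh2 with regional expression in the forebrain, lies at chr2:179177136-179634078 on the plus strand, also with 16 exons. Its level was 11.4 FPKM in Rcor2fl/fl, with a deposited interval from 9.86 to 12.96, and 23.8 FPKM in Rcor2cko, with an interval from 20.9 to 26.8. From 1322 and 3731 fragments its log2 change was 1.06, with an exact interval from 0.97 to 1.15, the largest change among the members that passed. Exons of Cdh4 overlap the annotated Gm10711 on the same strand, whose reads could not be separated from it. The share of Cdh4 in the summed FPKM of the 17 classical cadherins was 7.23% in Rcor2fl/fl and 15.1% in Rcor2cko, and that of Cdh2 was 59.7% and 51.7%. The sum itself was 157.8 and 157.6 FPKM. Cdh2 exceeded Cdh4 by 8.26 times in Rcor2fl/fl and by 3.42 times in Rcor2cko.

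Cdh1 (E-cadherin), Cdh3 (P-cadherin) and Cdh15 (M-cadherin), which mark epithelia and muscle, were near the limit of detection. Cdh1 was at 0.0503 and 0.0466 FPKM from 4 and 5 fragments, and Cdh15 at 0.1002 and 0.0297 FPKM from 5 and 2 fragments. Cdh3 was at 0 in Rcor2fl/fl and at 0.185 FPKM in Rcor2cko, with a deposited interval from 0.0526 to 0.317 in Rcor2cko. The value of 0.185 is 3.52 times the 0.0524 FPKM that 3 fragments would give in the Rcor2fl/fl library. The lower end of the interval is about at that limit, so that no minimum rise can be given.

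The 12 type II cadherins, which sort neurons into regions and nuclei and carry a different adhesive interface from type I, had no common direction. Cdh8, which marks parts of the cortex and striatum, was their highest member at 17.2 FPKM in Rcor2fl/fl and 14.9 FPKM in Rcor2cko, a log2 difference of -0.20, with overlapping FPKM intervals from 14.6 to 19.7 and from 12.3 to 17.5. Cdh11, a cadherin of mesenchyme and of neural tissue, was at 11.7 and 12.2 FPKM, a log2 difference of 0.05 (exact interval -0.07 to 0.18.) Cdh24 was at 10.3 and 9.32 FPKM, a log2 difference of -0.14 (interval -0.32 to 0.03.) These levels did not differ beyond counting error where it could be measured. Cdh6, a marker of cortical and striatal compartments in the embryo, was at 4.07 and 4.71 FPKM from 187 and 292 fragments, and its interval of -0.06 to 0.48 also included 0. Cdh10 was at 4.89 FPKM in Rcor2fl/fl and 6.93 FPKM in Rcor2cko. From 296 and 566 fragments its log2 change was 0.49, with an interval from 0.30 to 0.71, under 1.5-fold.

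Cdh20 was the member called lower. It lies at chr1:106665106-106892058 of mm9 on the plus strand, with 12 exons, and was at 1.78 FPKM in Rcor2fl/fl and 1.07 FPKM in Rcor2cko. From 118 and 96 fragments its log2 change was -0.68, with an exact interval from -1.13 to -0.33, which reaches inside 1.5-fold. Its deposited FPKM intervals, from 1.23 to 2.32 and from 0.688 to 1.45, overlapped, and it was the lowest of the 24 members in both libraries. The 250 bases before its start in RefSeq (GRCm38.p6, chr1:104768270-104768519, plus strand) are shown as the promoter of the member that was lower, with each CG in capitals.
Cdh20: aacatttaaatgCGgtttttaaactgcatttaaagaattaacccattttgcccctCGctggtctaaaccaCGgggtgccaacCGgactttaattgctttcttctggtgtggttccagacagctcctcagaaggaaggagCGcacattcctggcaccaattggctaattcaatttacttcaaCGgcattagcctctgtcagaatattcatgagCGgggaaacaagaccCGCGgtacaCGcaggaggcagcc
The window holds 10 CG and has 47.6% G and C.

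Several type II members lie on the same chromosome. On chromosome 15 are Cdh6, Cdh9, Cdh10, Cdh12 and Cdh18, of which Cdh6 and Cdh10 passed the filter, both with a log2 difference above 0. Among those below 1 FPKM, Cdh12 and Cdh18 had log2 differences of 0.28 and 0.51 and Cdh9 one of -0.19, each with an exact interval that included 0. Cdh7, Cdh19 and Cdh20 lie on chromosome 1, where Cdh20 was lower. Cdh7 was at 0.571 FPKM in Rcor2fl/fl and 0.697 FPKM in Rcor2cko, from 34 and 56 fragments. Its exact interval of -0.35 to 0.95 included 0. Cdh13 (T-cadherin), which is held in the membrane by a lipid anchor and lacks the part that binds catenins, lies on chromosome 8 with Cdh8 and Cdh11. It was the second highest member, at 38.4 and 37.5 FPKM from 1518 and 1994 fragments, and its interval of -0.13 to 0.06 included 0.

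**Figure D2:**
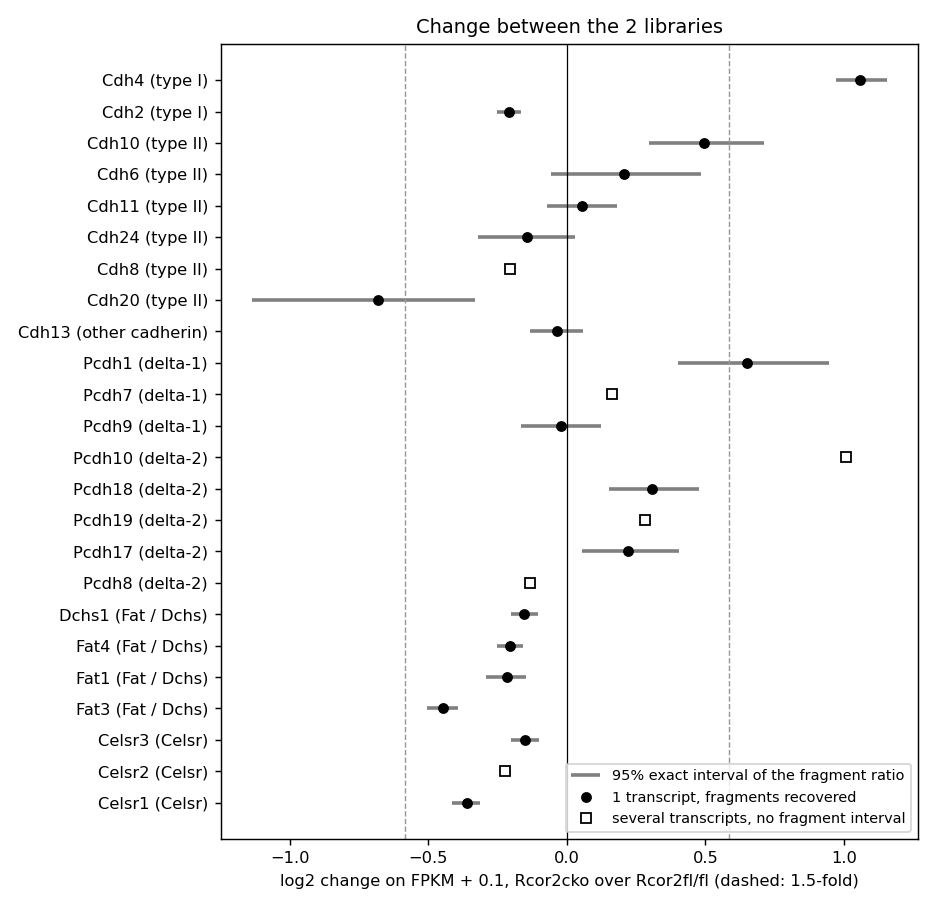
log2 change on FPKM + 0.1, Rcor2cko over Rcor2fl/fl, of the 24 members, with bars for the 95% exact interval of the fragment ratio where a gene has 1 transcript (filled points) and without bars where it has several (open squares). Cdh4, Pcdh10 and Pcdh1 lie above the dashed 1.5-fold line, Cdh20 lies below it, and all 7 Fat, Dchs and Celsr genes lie left of 0.

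Of the 9 delta protocadherins, 8 passed the filter, 6 of them with a log2 change above 0, and the median was 0.25. Their summed level was 43.9 FPKM in Rcor2fl/fl and 55.5 FPKM in Rcor2cko, of which Pcdh10 made 7.49 and 15.2. Pcdh10 (OL-protocadherin), a delta-2 member that acts on actin and is used in axon growth and in striatal and cortical circuits, lies at chr3:45182320-45238488 of mm9 on the plus strand, with 5 exons. It was at 7.49 FPKM in Rcor2fl/fl, with an interval from 6.21 to 8.78, and at 15.2 FPKM in Rcor2cko, with an interval from 13.0 to 17.3, a log2 difference of 1.01. In Rcor2fl/fl this level was the sum of 4 transcripts at 3.23, 2.08, 1.10 and 1.08 FPKM, and in Rcor2cko the deposited value is per gene, so that no transcript could be compared. Its 250 bases before the start (RefSeq, GRCm38.p6, chr3:45378148-45378397, plus strand) are shown as those of the protocadherin with the largest rise, again with each CG in capitals.
Pcdh10: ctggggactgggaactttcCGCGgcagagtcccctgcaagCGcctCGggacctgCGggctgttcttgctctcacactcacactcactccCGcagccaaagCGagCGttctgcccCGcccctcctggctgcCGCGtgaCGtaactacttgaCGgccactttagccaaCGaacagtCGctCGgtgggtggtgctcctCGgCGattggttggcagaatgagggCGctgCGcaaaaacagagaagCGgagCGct
This window holds 22 CG and has 63.2% G and C, against 10 CG in the window of Cdh20. RefSeq gave windows for 28 of the 43 members, 31 windows in all, with a median of 11 CG, against a median of 6 in all 32851 windows.

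The remaining delta-2 members were closer together. Pcdh18 was at 5.35 and 6.65 FPKM in Rcor2fl/fl and Rcor2cko, a log2 difference of 0.31 (exact interval 0.15 to 0.48.) Pcdh17, which marks parts of the cortico-striatal pathway, was at 2.50 and 2.93 FPKM, a log2 difference of 0.22 (interval 0.05 to 0.40.) Both were higher beyond counting error and under 1.5-fold. Pcdh8 (arcadlin), an activity-regulated member, was at 10.3 and 9.39 FPKM, a log2 difference of -0.13 with overlapping FPKM intervals.

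Pcdh19, a partner of Cdh2 whose mutation causes an X-linked epilepsy, was at 4.49 FPKM in Rcor2fl/fl and 5.49 FPKM in Rcor2cko, a log2 difference of 0.28, and its FPKM intervals overlapped. Pcdh19 and Pcdh11x lie on the X chromosome. The difference in Xist given above therefore stands beside their values.

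Among the delta-1 members, Pcdh1 was called higher. It lies at chr18:38345569-38371707 of mm9 on the minus strand, with 5 exons, and was at 2.36 FPKM in Rcor2fl/fl and 3.76 FPKM in Rcor2cko. From 165 and 355 fragments its log2 change was 0.65, with an exact interval from 0.40 to 0.95, which reaches below 1.5-fold. The deposited FPKM intervals, from 1.72 to 3.01 and from 2.90 to 4.62, overlapped. Pcdh9 was at 6.87 and 6.77 FPKM, a log2 difference of -0.02 (interval -0.16 to 0.12), and its sign turned positive under each of 3 other scalings. Pcdh7 was at 4.16 and 4.67 FPKM, a log2 difference of 0.16 with overlapping FPKM intervals.

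The Fat, Dachsous and Celsr genes were lower by small amounts in the Rcor2cko library. Of 8 genes, 7 passed the filter and none was past 1.5-fold. Their median log2 change was -0.22 and their summed level 172.7 FPKM in Rcor2fl/fl and 146.5 FPKM in Rcor2cko. In each of the 6 with fragments, the exact interval lay below 0. Their transcripts, of 10543 to 18468 nt, are long, and the values of other long transcripts belong beside them. Of the 373 genes with 1 transcript of at least 8000 nt, 66.2% had a log2 change below 0 and 43.4% an exact interval below 0. The 366 of these that are not members had a median log2 change of -0.05 and a lower quartile of -0.146. All 7 Fat, Dchs and Celsr genes lay below that quartile, Celsr3 only just at -0.1495. Celsr2, with 2 transcripts, is not of the 1-transcript kind. Of the 366 genes, 281 had a mean of at least 5 FPKM over the 2 libraries. Among these, 70.5% were below 0 and the 10th percentile was -0.223, with Fat3 and Celsr1 the members of this family below it. The part of transcript length in their values was not tested.

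**Figure D3:**
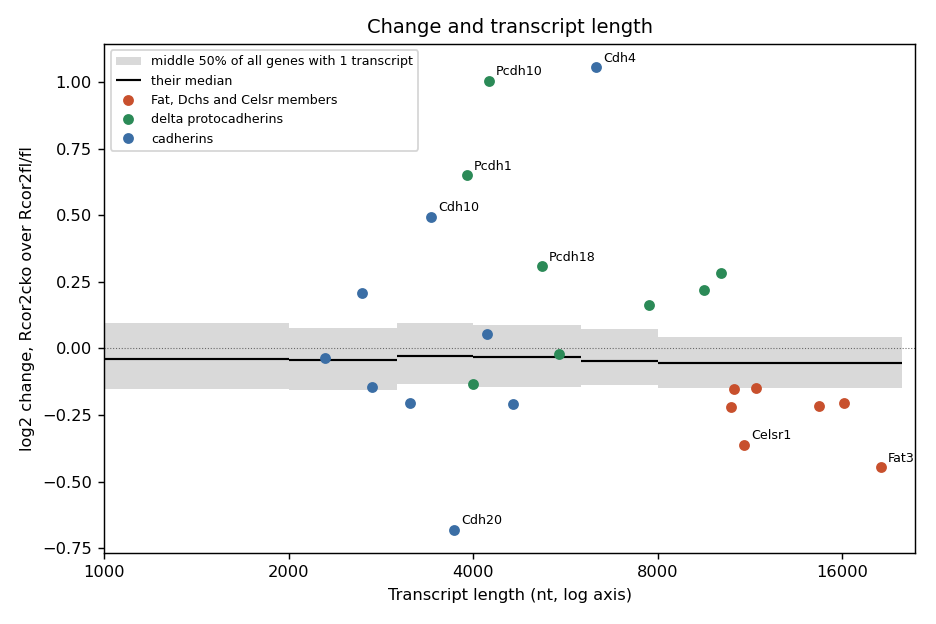
log2 change on FPKM + 0.1, Rcor2cko over Rcor2fl/fl, against transcript length in nt (log axis) for the 24 members, with Fat, Dchs and Celsr genes in red, delta protocadherins in green and other cadherins in blue. The black line and grey band give the median and the middle 50% of all genes with 1 transcript in 6 length classes, with a median of -0.05 in the longest class, and the red points lie near or below the lower edge of its band.

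Fat3, which shapes neurites and the migration of neurons, had the largest difference of this family. It lies at chr9:15714649-16182681 of mm9 on the minus strand, with 25 exons, and was at 14.8 FPKM in Rcor2fl/fl, with an interval from 12.98 to 16.7, and at 10.9 FPKM in Rcor2cko, with an interval from 9.54 to 12.2. From 5111 and 5060 fragments its log2 change was -0.45, with an exact interval from -0.51 to -0.39, under 1.5-fold. It was the only one of the 24 members that was lower with FPKM intervals apart, as were 1.21% of all genes that passed the filter, whereas 2.26% were higher with intervals apart. Fat1, which acts at apical junctions of radial glia, was at 10.7 and 9.18 FPKM, a log2 difference of -0.22 (exact interval -0.29 to -0.15.) Fat4 and Dchs1 are a receptor and ligand pair at the apical surface of cortical progenitors, and their loss is known to give misplaced neurons. Fat4 was at 22.7 and 19.7 FPKM, a log2 difference of -0.20 (interval -0.25 to -0.16.) Dchs1 was at 30.8 and 27.7 FPKM, a log2 difference of -0.15 (interval -0.20 to -0.10.) Dchs2 was not analysed here.

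The Celsr genes code for receptors that span the membrane several times and that guide axon tracts and cilia as well as polarity. Celsr1, the member of progenitors, lies at chr15:85729188-85864207 of mm9 on the minus strand, with 35 exons, and was at 30.1 FPKM in Rcor2fl/fl and 23.4 FPKM in Rcor2cko. From 6158 and 6475 fragments its log2 change was -0.36, with an exact interval from -0.41 to -0.31. Celsr2 was at 36.3 and 31.1 FPKM, a log2 difference of -0.22, and its FPKM intervals overlapped. Celsr3, the member of postmitotic neurons, was at 27.2 and 24.5 FPKM, a log2 difference of -0.15 (interval -0.20 to -0.10.) Celsr1 and Celsr3 were both lower by small amounts in this bulk tissue, and which cells gave these values was not tested.

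The RE1 element is the site of REST, a repressor that recruits CoREST proteins, the family to which Rcor2 belongs. Its left part, TTCAGCACC, searched on both strands, was present in 2 of the 31 member windows and in 0.301% of all 32851 windows of the same length. These windows are shown because they hold the match, which is in capitals and, for Cdh9, reads as its reverse complement. Celsr3 is at chr9:108825795-108826044 and Cdh9 at chr15:16728665-16728914 (RefSeq, GRCm38.p6, both on the plus strand).
Celsr3: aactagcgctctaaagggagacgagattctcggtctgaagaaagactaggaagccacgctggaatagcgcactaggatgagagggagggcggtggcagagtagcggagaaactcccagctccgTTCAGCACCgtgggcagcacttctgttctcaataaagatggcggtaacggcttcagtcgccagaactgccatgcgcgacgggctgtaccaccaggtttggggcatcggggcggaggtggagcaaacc
Cdh9: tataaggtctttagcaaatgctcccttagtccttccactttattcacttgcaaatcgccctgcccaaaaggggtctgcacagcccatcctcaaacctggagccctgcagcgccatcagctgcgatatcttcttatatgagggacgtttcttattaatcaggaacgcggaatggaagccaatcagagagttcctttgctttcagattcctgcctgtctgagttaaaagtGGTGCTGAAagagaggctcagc
The match begins at base -127 in Celsr3 and at base -22 in Cdh9, counted from the start. A longer pattern with letters of both parts of RE1 was searched without mismatches. It was in 0 of the 31 member windows and in 3 of all windows. Sites that differ from this pattern in single bases were not searched for. Whether the Celsr3 or the Cdh9 window holds an RE1 element with such differences was therefore not tested. Neither gene was past 1.5-fold. Cdh9 was at 0.412 FPKM in Rcor2fl/fl and 0.349 FPKM in Rcor2cko, from 21 and 24 fragments. Of other motifs, CAGCTG, an E-box, was in 2 member windows against 13.0% of all, TAATTA, a homeodomain motif, in 1 against 4.84%, and GAGAGA in 6 against 20.2%. A match describes letters of the window and says nothing of binding in this tissue.

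The 19 members that did not pass the filter had levels of up to 0.968 FPKM in Rcor2fl/fl and 0.870 FPKM in Rcor2cko. They are 3 type I and 6 type II cadherins, 4 other cadherins, the tip link genes Cdh23 and Pcdh15 of the inner ear, Pcdh11x, Pcdh12, Pcdh20 and Fat2. Cdh16 was at 0 in both libraries, Cdh3, Cdh19 and Cdh26 were at 0 in Rcor2fl/fl, and Fat2 was at 0 in Rcor2cko. In Rcor2cko, Cdh19 and Cdh26 had 2 fragments each, under the limit of 3 fragments that a count of 0 allows. Fat2 had 5 fragments in Rcor2fl/fl, a level of 0.0187 FPKM, against a limit of 0.00828 FPKM in Rcor2cko.

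Of these low members 4 were past 1.5-fold on FPKM + 0.1, and they are named here after their values were seen. The share of all genes under 1 FPKM that were past 1.5-fold is not given here, so that this count cannot be read as a trait of the members. Cdh3 and Cdh15 are given above. Cdh22, a type II cadherin, was at 0.422 FPKM in Rcor2fl/fl and 0.870 FPKM in Rcor2cko, from 27 and 75 fragments, with an exact interval of the log2 ratio from 0.39 to 1.73. Pcdh11x was at 0.396 and 0.725 FPKM, from 32 and 79 fragments, with an interval from 0.26 to 1.51, and the difference in Xist applies to it as well. Pcdh12, which is known from vessels, was at 0.787 and 0.721 FPKM, and the 8 endothelial markers summed to 31.4 and 33.9 FPKM with none past 1.5-fold.

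Several members are annotated with more than 1 transcript, and only the Rcor2fl/fl values resolve them. Cdh8 was split into transcripts at 11.8 and 5.33 FPKM, Celsr2 into 25.9 and 10.4 FPKM, and Pcdh8 into 5.46 and 4.86 FPKM. Pcdh19 and Pcdh7 came mostly from 1 transcript, at 3.78 against 0.718 FPKM and 3.82 against 0.336 FPKM. Exons of Cdh8, Cdh24, Dchs1, Fat1, Fat4 and Pcdh19 overlap annotated genes on the opposite strand, and Celsr3 a gene model on the same strand. Whether the counting used strand is not given in the sources used here, so that reads of these overlaps cannot be told apart.

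**Figure D4:**
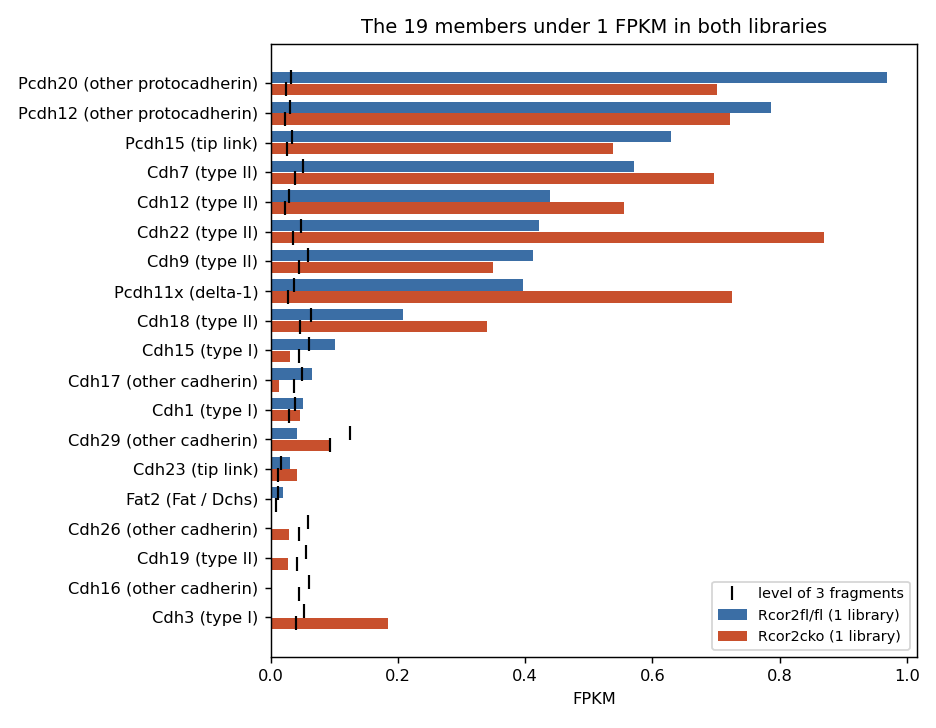
FPKM of the 19 members under 1 FPKM in both libraries, Rcor2fl/fl in blue and Rcor2cko in red, with a tick at the level that 3 fragments would give. Cdh22 and Pcdh11x are well above their ticks and higher in Rcor2cko, whereas the 5 lowest genes in the plot, Fat2, Cdh26, Cdh19, Cdh16 and Cdh3, are at 0 in at least 1 library.

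Genes that work with cadherins were mostly level between the libraries, as were most genes. Of 54 partner genes in 6 lists, 52 passed the filter, of which 2 were past 1.5-fold higher and none lower. Of all genes that passed, 3.79% were higher and 1.76% lower. The median log2 change was -0.03, the same as that of all genes. Exact intervals, available for 34, lay above 0 in 7 and below 0 in 10, against 14.0% above and 23.2% below 0 of all genes with fragments. The catenins, which link cadherins to actin, had 0 of 8 past 1.5-fold and a median of -0.01, with Ctnnb1 (beta-catenin) at 366 and 363 FPKM. The 11 apical junction genes had a median of -0.01, and 1 of them was higher. This was Pvrl1 (nectin-1), an adhesion protein of the adherens junction, at 2.68 FPKM in Rcor2fl/fl and 4.47 FPKM in Rcor2cko, a log2 difference of 0.72 from 246 and 554 fragments with an exact interval from 0.52 to 0.96.

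Of the planar polarity genes, 10 of 11 passed, with a median of -0.11, and 1 was higher. Prickle2, a cytoplasmic component of the polarity core, was at 1.502 and 2.503 FPKM, a log2 difference of 0.70. The Fat-Dachsous and Hippo genes had 0 of 10 past 1.5-fold and a median of -0.03, and Fjx1, which is related to the kinase that modifies Fat and Dachsous in flies, was at 14.9 and 15.8 FPKM. The actin regulators that bind delta-2 protocadherins had 0 of 8 and a median of 0.03. Among the 5 processing enzymes, which cut cadherins or their precursors, none was past 1.5-fold. The largest falls over all lists were in this group, with Psen2, a gamma-secretase subunit, at 2.42 and 1.70 FPKM, a log2 difference of -0.48, and Furin, a convertase of cadherin precursors, at 6.33 and 4.67 FPKM, a log2 difference of -0.43.

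**Figure D5:**
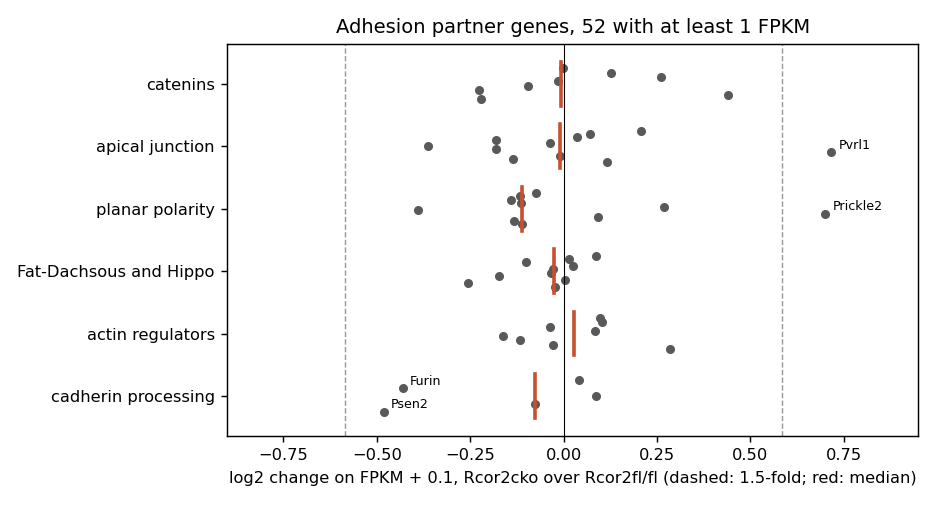
log2 change on FPKM + 0.1, Rcor2cko over Rcor2fl/fl, of the 52 partner genes with at least 1 FPKM, 1 point per gene in 6 lists, with a red bar at the median of each list and dashed lines at 1.5-fold. Medians lie between -0.11 and 0.03, and Pvrl1 and Prickle2 are the points past the line.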

How the data were processed

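RNA of the dissected VZ–SVZ was measured in 1 Rcor2fl/fl and 1 Rcor2cko library at E13.5, both grouped by genotype from the sample labels. Libraries were made with a stranded mRNA kit. The submitters' processing notes name TopHat 1.3.3 and Cufflinks 1.2.0, whereas the paper's methods give another TopHat release, default mapping to mm9 and Cuffdiff. The authors deposited FPKM values with a 95% interval, per RefSeq transcript for Rcor2fl/fl (27641 rows) and per gene for Rcor2cko (21896 rows). The status given with a row was other than OK in 281 and 93 rows, none of them of a member.

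Transcript rows were summed per gene, and the half-widths of their intervals added in quadrature. Comparisons were made on log2(FPKM + 0.1) among genes that reached 1 FPKM in either library. A count test was not used, since FPKM are not counts and there is 1 library per genotype. Whole fragments could be worked out for 14350 genes (a single transcript, 1000 nt or longer) using offsets of 193.9 and 201.0 nt fitted on 586 and 599 genes with 1 fragment. Of values up to 100 fragments, 99.28% of 4019 and 99.42% of 3950 were within 0.1 of a whole number. These steps were tested on simulated data. The limit that a count of 0 allows was taken as 3 fragments. Positions are from GENCODE vM1 on mm9, counted from 1, where 42 of the 43 members were found by symbol, all but Cdh29. Promoter windows are from RefSeq on GRCm38.p6 and are not combined with mm9 positions. Python 3.11.15, numpy 2.4.6, pandas 2.3.3, scipy 1.17.1 and matplotlib 3.10.9 were used.

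Members that reached 1 FPKM in either library were named with their values and the others by group, count and range, with those at 0 named. Values of Cdh1, Cdh7, Cdh9, Cdh12, Cdh15, Cdh18, Cdh22, Pcdh11x and Pcdh12, under 1 FPKM, were added after they were seen. Of the partner genes, the 2 with the largest rise and the 2 with the largest fall were named, and Ctnnb1 and Fjx1 were added after their values were seen. The members, the lists of partner and marker genes and the tests were chosen with earlier results of these data known. Alternatives were 3 choices of pseudocount, 3 scalings, 3 filters on low values, the highest row per gene, a 2-fold threshold, FPKM intervals apart and exact intervals without 0.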

Additional observations from a re-analysis of the deposited data

How the results depend on the processing

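No paired analysis was possible because each genotype has only 1 library, and no replicate could be left out. Of 13 alternatives, 10 give a value for single members, and under these Cdh4 (log2 change 1.001 to 1.09) and Pcdh10 (0.93 to 2.19) were past 1.5-fold, Pcdh1 ranged from 0.50 to 0.68 and Cdh20 from -0.73 to -0.42. The 3 members higher became 2 with a pseudocount of 1, at 5 FPKM, past 2-fold, or where FPKM intervals apart or exact intervals without 0 were also required, 4 with the highest row per gene and 6 without a filter on low values. Pcdh10 has no exact interval. The 1 member lower became 2 without a filter, and 0 with a pseudocount of 1, at 5 FPKM, past 2-fold or where FPKM intervals apart were required besides 1.5-fold. Of partner genes, 2 were higher, 0 with a pseudocount of 1, at 5 FPKM or past 2-fold, 1 where exact intervals without 0 were required, which genes with several transcripts cannot have, and 10 with the highest row per gene. Without a filter, 1 partner gene, Ctnna3, was lower where there had been 0. The shares of all genes called under these alternatives are not given here, so that these counts have no reference beside them. The highest row per gene sets 1 transcript of Rcor2fl/fl against the whole gene in Rcor2cko. There the order of levels had a rho of 0.893, the median of the members was 0.13, and Cdh8, Celsr2 and Pcdh8 turned to 0.33, 0.26 and 0.77. Over the other alternatives the median lay between -0.14 and -0.02. Of the 24 members, 20 kept their sign under these 10, and Pcdh9 turned positive with each scaling, by factors of 0.04, 0.02 and 0.03 on the log2 scale. Depth limits the members under 1 FPKM, most of which rest on fewer than 100 fragments.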
